A study of Mus musculus with 40 samples.

Results

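The genes described are 10 members of the thioredoxin, glutathione and antioxidant systems: Txnip, Txnrd1, Gclm, Glrx, Prdx1, Prdx2, Gpx3, Gpx4, Sod1 and Sod2. A probe set was used only where its annotation lists exactly 1 gene, and for each gene the probe set with the highest mean over all arrays stood for it. This gave values for 9 of the 10 members, among 14916 genes tested. All 5 probe sets of Prdx1 are listed with a second gene, so no level of Prdx1 is given. The embryos were of the B6D2 mouse background, their poly(A) RNA was labelled and read on Affymetrix arrays with 45101 probe sets, and 39 of 40 arrays held values. The 10 groups, of 4 arrays each unless stated, cover the 2-cell and the 1-cell stage. At each stage there were embryos made by somatic cell nuclear transfer (SCNT) and exposed to α-amanitin, which blocks RNA polymerase II, SCNT embryos without it, parthenogenetic embryos, which have no paternal genome, fertilized embryos with amanitin, and fertilized embryos without it. The untreated 1-cell SCNT group has 3 arrays, since the values of its replicate 2 are empty. Donor nuclei came from cumulus cells, the somatic cells around the oocyte. The labels name MEMα as the medium of SCNT embryos and KSOM for 1 fertilized sample, so medium and origin cannot be told apart. They spell out amanitin for 7 of the 8 SCNT samples with the letter A, and for the fertilized samples that letter was read the same way, as the design text names the treatment for both origins. Neither embryo age in hours, nor the number of embryos per sample, nor how parthenogenetic embryos were activated is given, and no label says that replicates came from separate collections. The p-values therefore measure only the spread between these samples, which may be technical.

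Reactive oxygen species are removed in steps that these genes serve. Superoxide dismutases turn superoxide into hydrogen peroxide, and peroxiredoxins and glutathione peroxidases reduce peroxides with electrons that reach them through thioredoxin or glutathione, and in the end from NADPH. Mouse oocytes carry stored transcripts that are degraded around the time when the embryo's own transcription begins, with its main wave at the 2-cell stage, and the redox state of the early embryo is known to depend on thiol systems laid down in the oocyte.

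Promoter stretches that hold the motifs named below are shown for 5 members. They are 150 bases that end just before an annotated start, read 5′ to 3′ on the plus strand, from RefSeq on build GRCm38.p6. In Txnrd1, Sod1 and Gclm the capitals mark the core of the antioxidant response element, TGACNNNGC on the opposite strand, the kind of element that Nrf2 (gene Nfe2l2) binds.
Txnrd1, chr10:82859056-82859205: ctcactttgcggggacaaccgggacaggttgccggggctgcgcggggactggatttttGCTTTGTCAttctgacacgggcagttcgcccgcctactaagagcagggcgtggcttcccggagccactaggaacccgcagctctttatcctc
Sod1, chr16:90220612-90220761: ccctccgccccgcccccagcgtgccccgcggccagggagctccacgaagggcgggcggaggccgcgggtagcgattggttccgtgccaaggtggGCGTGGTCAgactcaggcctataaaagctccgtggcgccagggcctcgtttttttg
Gclm, chr3:122245407-122245556: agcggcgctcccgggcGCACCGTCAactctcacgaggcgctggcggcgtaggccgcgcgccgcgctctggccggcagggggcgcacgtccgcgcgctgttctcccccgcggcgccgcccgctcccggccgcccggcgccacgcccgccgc
In Gpx4 and Sod2, both higher at the 2-cell stage in every origin and lower there with amanitin, the capitals mark GC boxes (GGGCGG, either strand) and CCAAT boxes (CCAAT, either strand). These boxes are not particular to that pattern. Sod1, lower at the 2-cell stage in every origin, has both kinds in its stretch above, where they are left in lower case.
Gpx4, chr10:80053415-80053564: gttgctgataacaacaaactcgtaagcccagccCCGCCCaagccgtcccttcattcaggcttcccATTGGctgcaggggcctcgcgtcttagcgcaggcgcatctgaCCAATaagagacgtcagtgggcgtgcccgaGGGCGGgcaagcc
Sod2, chr17:13007689-13007838: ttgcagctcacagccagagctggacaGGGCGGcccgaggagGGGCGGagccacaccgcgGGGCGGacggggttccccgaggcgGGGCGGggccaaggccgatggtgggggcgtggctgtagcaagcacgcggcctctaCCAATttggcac
All 10 members matched at least 1 window of 250 bases before to 50 bases after a start, and 16 windows were searched on both strands. The antioxidant response element core was in 4 of these 16 windows, of the members Txnrd1, Sod1, Gclm and Prdx1, and in 12.4% of all 32851 windows of that length. Counted from the start, its first base lay at -92 in Txnrd1, at -56 in Sod1 and at -134 in Gclm. GC boxes were in 11 of the 16 windows (9 members) and in 35.7% of all windows, and CCAAT boxes in 9 of the 16 (7 members) and in 37.4%. The TATA box TATAAA was in 2 of the 16, of Sod1 and Prdx1, and in 13.6% of all windows. Windows of 1 gene can overlap and were counted separately. The E-box CACGTG, in 7.15% of all windows, was in none of the members' windows. Neighbouring GC boxes of Sod1 share bases, and in the members no match to a motif overlapped a match to another. Such matches describe letters and are not evidence of binding, and their link to the levels was not tested.

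Levels are given as log2 of the deposited intensity plus 6.9, quantile normalized, with fold changes on that scale, and the overall median of all values is 5.34, near the background. They are relative to the whole signal of an array, so in these samples fewer cells of a type and less RNA per cell cannot be told apart. Arrays of the same group had correlations of 0.940 to 0.980 over genes. The 18S control averaged 10.25 to 11.22 in the 3 untreated 2-cell groups, against 12.72 to 13.25 in the other 7. Poly(A) spike-in probe sets averaged 9.60 in amanitin-treated 2-cell SCNT embryos, 3.73 and 3.60 in the amanitin-treated and untreated 1-cell SCNT groups, and 5.88 to 7.99 elsewhere. The part of these controls in the results was not tested. Of 11 oocyte markers on the array, 10 or 11 lay above the overall median in each group. The summed level of 11 cumulus markers, set mainly by Amhr2 in the untreated 2-cell groups, was 9.52 to 9.68 in amanitin-treated and 11.67 to 12.05 in untreated 2-cell SCNT embryos. In untreated 2-cell parthenogenetic embryos it was 10.33 to 10.57, in treated and untreated 2-cell fertilized embryos 9.67 to 9.96 and 11.30 to 11.93, and at the 1-cell stage 9.19 to 9.65. Amhr2, the receptor of Amh, had means of 11.59, 9.63 and 11.35 in untreated 2-cell SCNT, parthenogenetic and fertilized embryos and 5.12 to 5.61 in the other 7 groups. Without Amhr2, left out after its values were seen, the sum of the other 10 markers was 9.42 to 9.59 in amanitin-treated and 8.86 to 9.15 in untreated 2-cell SCNT embryos. In 2-cell parthenogenetic embryos it was then 9.0 to 9.26, in treated and untreated 2-cell fertilized embryos 9.59 to 9.87 and 8.66 to 9.06, and at the 1-cell stage 9.06 to 9.58. Has2, Star, Cyp11a1 and Foxl2 were among the markers with higher means in treated than in untreated 2-cell SCNT embryos (5.71 against 4.90, 6.22 against 5.20, 6.09 against 5.25 and 8.02 against 7.26). Ptx3, Tnfaip6 and Inha were higher too, while Amhr2, Amh, Fshr and Ptgs2 were lower. In 2-cell fertilized embryos Has2, Star, Cyp11a1 and Foxl2 were likewise higher with amanitin (5.86 against 4.86, 6.11 against 5.08, 7.47 against 5.13 and 7.79 against 6.97). Amhr2, Amh and Inha were lower there. No marker was listed at 0, and the means of Amh, a hormone of follicle cells, were 3.33 to 4.06 and those of Ptx3, a matrix protein of the cumulus, 3.63 to 4.77, below the overall median in every group. The part of donor cells in the results was not tested.

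The 9 measured genes did not share a pattern. Txnip, Glrx and Sod1 were lower at the 2-cell than at the 1-cell stage in every origin, Gpx4 and Sod2 were higher, and the stage differences of Prdx2 stayed between -0.37 and 0.20 on the log2 scale. With amanitin, 2-cell embryos had lower Gpx4 and Sod2 than untreated ones in both origins tested. Sod1 was lower than in untreated 2-cell embryos in SCNT and higher in fertilized ones. In treated 2-cell fertilized embryos Sod1 averaged 11.24, still below the 11.75 of treated and 12.13 of untreated 1-cell fertilized embryos.

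**Figure D1:**
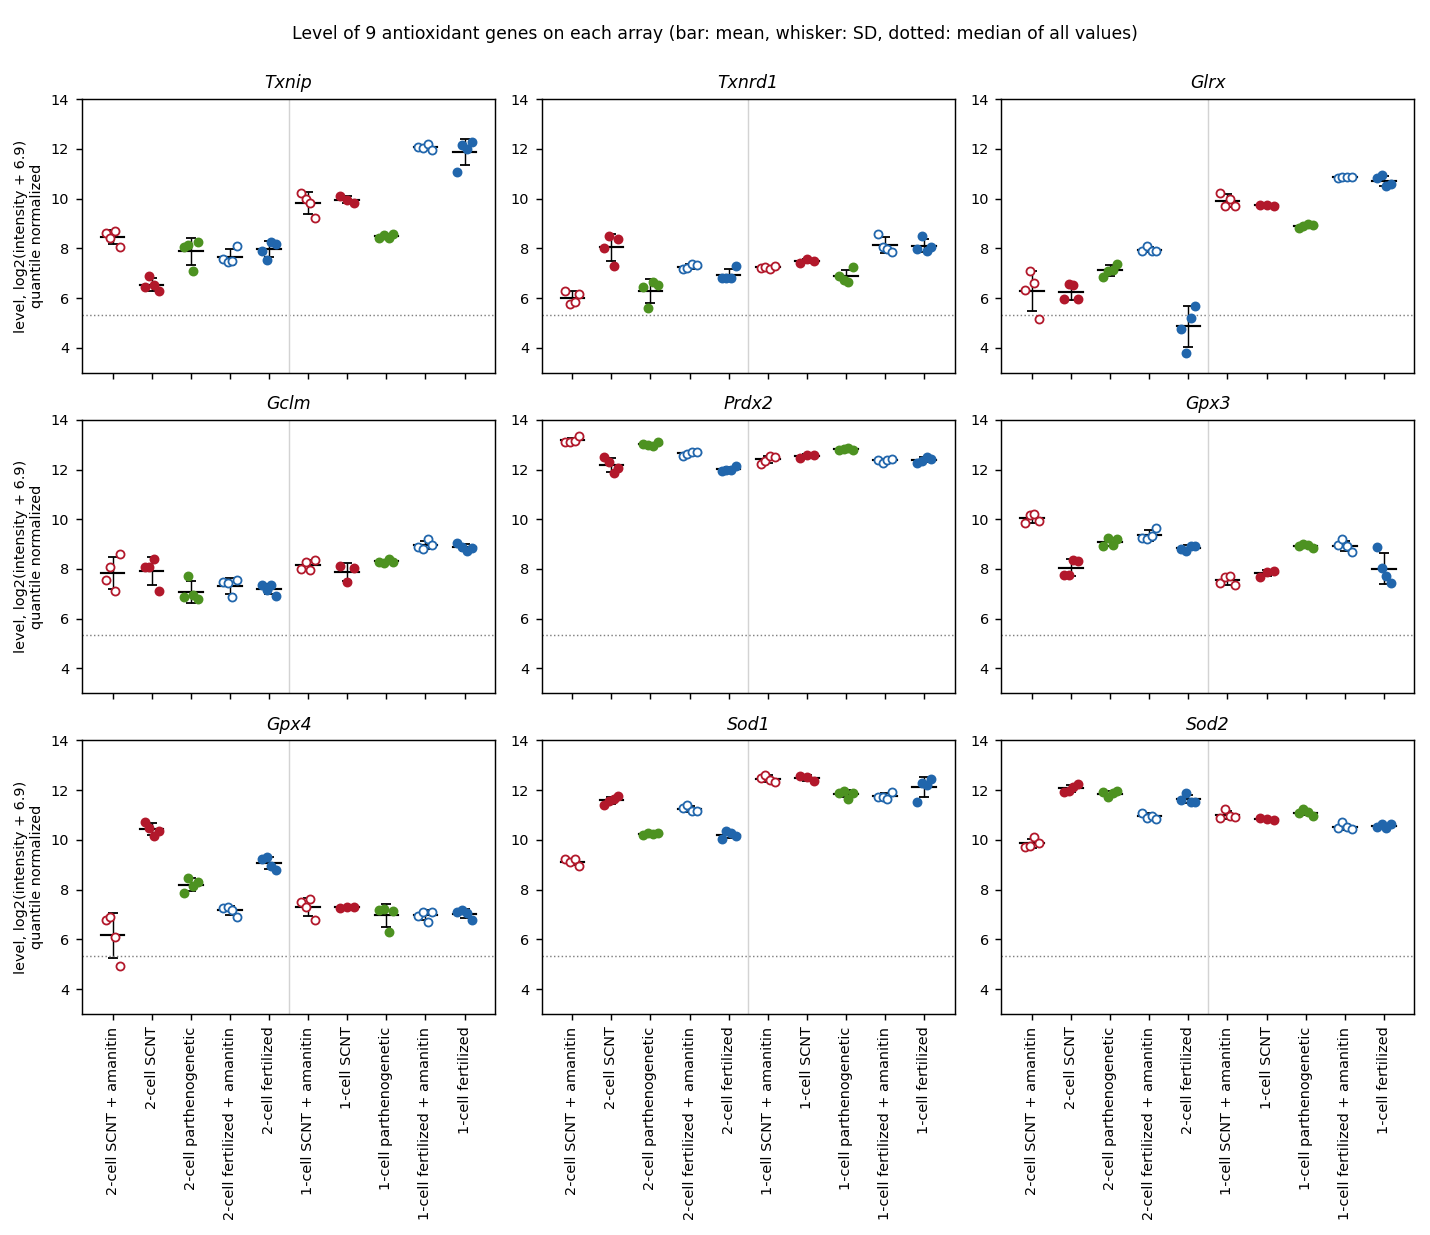
Level of each of the 9 measured genes on every array, as log2(intensity + 6.9) after quantile normalization, with the 10 groups along the axis. Points are arrays (open where amanitin was given), bars are means, whiskers are SDs, and the dotted line is the overall median of 5.34; Glrx in untreated 2-cell fertilized embryos reached down to 3.79.

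In the comparison of the stages in untreated embryos, 7 of the 9 genes passed the limma test at an adjusted p of 0.05 in SCNT embryos, 3 of them higher and 4 lower in 2-cell embryos. In parthenogenetic embryos 8 passed, 3 higher and 5 lower, and in fertilized embryos all 9, 3 higher and 6 lower. The share of all 14916 genes that passed was 60.7% in SCNT embryos (26.3% rose, 34.4% fell), 49.1% in parthenogenetic ones (21.7% rose, 27.4% fell) and 60% in fertilized ones (25.8% rose, 34.2% fell), so a call by itself sets none of the members apart. The median difference over the 9 was 0.048 in SCNT, -0.58 in parthenogenetic and -1.16 in fertilized embryos, beside -0.14, -0.040 and -0.13 over all genes. Arrays of the 2 stages did not overlap for 5 of the 9 genes in SCNT, 7 in parthenogenetic and 8 in fertilized embryos. The shares of all genes without overlap were 62.8%, 48.5% and 55%, so a lack of overlap by itself sets no member apart either. The p-values in what follows are limma's, adjusted over all genes tested.

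**Figure D2:**
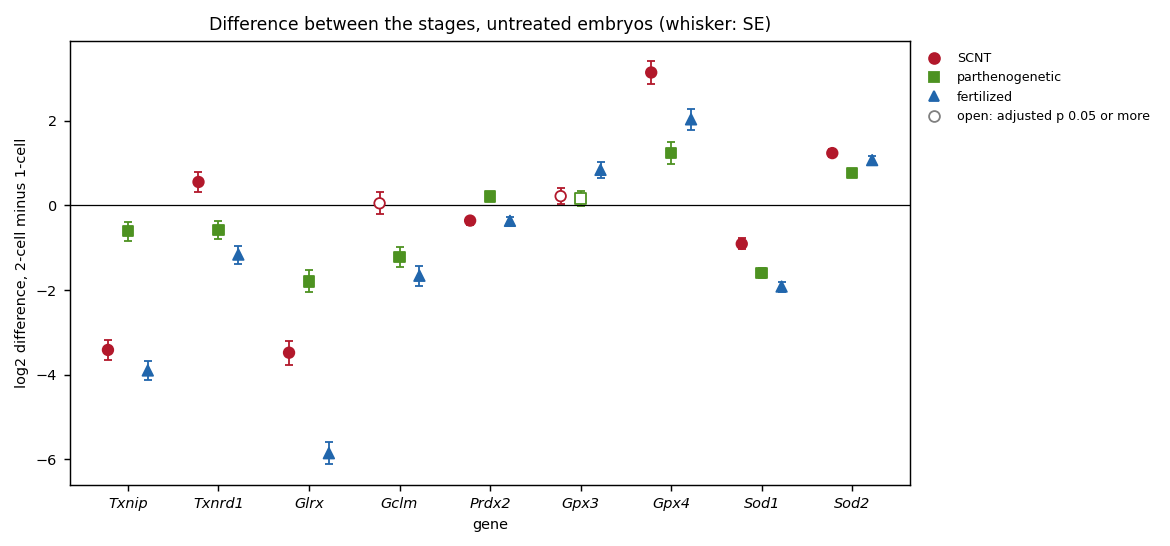
Difference between the 2-cell and the 1-cell stage in untreated embryos for each gene, on the log2 scale, by origin (whiskers are SEs, open symbols did not pass). Glrx ran from -5.86 in fertilized to -1.80 in parthenogenetic embryos, while Gpx4 and Sod2 were above 0 in all 3 origins.

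Txnip encodes a protein that binds and inhibits thioredoxin. At the 2-cell stage SCNT embryos had levels of 6.43, 6.90, 6.54 and 6.30, against 10.11, 9.93 and 9.83 at the 1-cell stage. Parthenogenetic embryos had 8.04, 8.14, 7.10 and 8.25 at the 2-cell stage, against 8.43, 8.56, 8.42 and 8.57 at the 1-cell stage. Fertilized embryos had 7.91, 7.55, 8.25 and 8.19 at the 2-cell stage, against 11.09, 12.15, 12.00 and 12.27 at the 1-cell stage. In each origin all 2-cell arrays lay below all 1-cell arrays, with the widest distances in SCNT and fertilized embryos. Txnip was 10.7-fold lower in SCNT embryos at the 2-cell stage, 1.53-fold lower in parthenogenetic and 14.9-fold lower in fertilized ones. On the log2 scale these differences were -3.42 (SE 0.24), -0.61 (SE 0.22) and -3.90 (SE 0.22), with adjusted p = 7.92e-16, 0.0202 and 1.13e-18. The parthenogenetic difference depended on replicate 3 of the 2-cell group, the lowest of its 4 arrays, since without it the difference was -0.35 (adjusted p = 0.188). The change of parthenogenetic embryos differed from that of fertilized ones by 3.29 (SE 0.31) in the test of the interaction (adjusted p = 5.55e-11), whereas for SCNT against fertilized embryos the interaction was 0.49 (SE 0.33) and did not pass (adjusted p = 0.347).

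Txnrd1 encodes the cytosolic thioredoxin reductase, a selenoenzyme that passes electrons from NADPH to thioredoxin. Its levels were 8.01, 8.50, 7.28 and 8.38 in 2-cell SCNT embryos, against 7.41, 7.56 and 7.51 in 1-cell SCNT embryos. In fertilized embryos they were 6.81, 6.83, 6.82 and 7.30 at the 2-cell stage, against 7.97, 8.49, 7.91 and 8.06 at the 1-cell stage. The SCNT arrays of the 2 stages overlapped and the fertilized arrays did not. The difference was 0.55 (SE 0.23) in SCNT embryos, -0.58 (SE 0.21) in parthenogenetic and -1.16 (SE 0.21) in fertilized ones (adjusted p = 0.0359, 0.0219 and 8.44e-06). The SCNT call was lost without any 1 of its arrays other than 2-cell replicate 3, at 0.40 to 0.59, and the parthenogenetic call without 2-cell replicate 2 (-0.34, adjusted p = 0.182) or 1-cell replicate 4 (-0.46, adjusted p = 0.0978). The SCNT call was also lost with median centring in place of quantile normalization (0.32), with the mean of all probe sets of a gene past the filter (0.31) and with a fit to only the compared arrays (adjusted p = 0.231, 0.171 and 0.0716). The parthenogenetic call was lost on the values as deposited (-0.28, adjusted p = 0.254) and with only the compared arrays (adjusted p = 0.0548), and the difference was -1.60 with the mean of probe sets. The interaction of SCNT with fertilized embryos was 1.72 (SE 0.31, adjusted p = 7.69e-05).

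Gclm, the modifier subunit of glutamate-cysteine ligase, the enzyme of the first step of glutathione synthesis, averaged 7.93 ± 0.57 at the 2-cell stage in SCNT embryos, against 7.88 ± 0.35 at the 1-cell stage (SD, n = 4 and 3). It averaged 7.08 ± 0.44 and 8.30 ± 0.068 in parthenogenetic and 7.20 ± 0.21 and 8.87 ± 0.13 in fertilized embryos at the 2-cell and the 1-cell stage (SD, n = 4 each). The stages did not overlap in parthenogenetic or fertilized embryos, where Gclm fell by 1.22 (SE 0.24, adjusted p = 3.35e-05) and by 1.66 (SE 0.24, adjusted p = 7.9e-08), while in SCNT embryos the difference of 0.048 (SE 0.26) did not pass (adjusted p = 0.888). The interaction of SCNT with fertilized embryos was 1.71 (SE 0.35, adjusted p = 0.000325).

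Glrx, a cytosolic glutaredoxin that uses glutathione to reduce protein disulphides, gave the largest stage difference among the 9 genes. SCNT embryos had 5.97, 6.56, 6.53 and 5.96 at the 2-cell stage, against 9.76, 9.75 and 9.70 at the 1-cell stage. Parthenogenetic embryos had 6.85, 7.09, 7.14 and 7.39 at the 2-cell stage, against 8.82, 8.89, 9.0 and 8.94 at the 1-cell stage. Fertilized embryos had 4.78, 3.79, 5.18 and 5.70 at the 2-cell stage, against 10.84, 10.95, 10.51 and 10.58 at the 1-cell stage. No origin had overlapping stages, and 3 of the 4 fertilized 2-cell arrays lay under the overall median, a range in which the constant affects the size of a difference. The differences were -3.48 (SE 0.28) in SCNT, -1.80 (SE 0.26) in parthenogenetic and -5.86 (SE 0.26) in fertilized embryos, with adjusted p = 7.25e-14, 2.52e-07 and 6.89e-22. The fertilized value was -6.19 with a constant of 1.8 and -5.22 with one of 22.1. Against fertilized embryos, the decrease was smaller by 2.38 (SE 0.39) in SCNT embryos (adjusted p = 1.48e-05) and by 4.06 (SE 0.37) in parthenogenetic ones (adjusted p = 2.19e-11).

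Among the enzymes that reduce peroxides, Prdx2, a cytosolic peroxiredoxin that takes electrons from thioredoxin, had group means between 12.02 and 13.18. Its stage differences were -0.36 (SE 0.092) in SCNT, 0.20 (SE 0.086) in parthenogenetic and -0.37 (SE 0.086) in fertilized embryos, and all 3 passed (adjusted p = 0.000841, 0.0468 and 0.000287). The sign in parthenogenetic embryos was not stable, since with median centring it was -0.16, and the call was lost without any 1 of its arrays other than 2-cell replicate 3 (0.18 to 0.22). It was also lost with the mean of probe sets (0.065), with no filter and with no trend in the fit (adjusted p = 0.609, 0.0632 and 0.0969). With the mean of probe sets the differences in SCNT and fertilized embryos were -0.99 and -1.06. Gpx3, the secreted plasma-type glutathione peroxidase, had 8.82, 8.74, 8.94 and 8.92 at the 2-cell stage in fertilized embryos, against 8.88, 8.04, 7.73 and 7.43 at the 1-cell stage. Replicate 1 of the 1-cell group lay within the 2-cell range and the other 3 below it. The difference of 0.84 (SE 0.18) passed (adjusted p = 0.000109), and those of 0.22 (SE 0.20) in SCNT embryos and 0.16 (SE 0.18) in parthenogenetic ones did not (adjusted p = 0.355 and 0.509).

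Gpx4, the selenoenzyme that reduces lipid hydroperoxides within membranes, rose in all 3 origins. SCNT embryos had 10.71, 10.49, 10.16 and 10.36 at the 2-cell stage, against 7.27, 7.29 and 7.31 at the 1-cell stage. Parthenogenetic embryos had 7.86, 8.45, 8.16 and 8.32 at the 2-cell stage, against 7.17, 7.23, 6.29 and 7.14 at the 1-cell stage. Fertilized embryos had 9.22, 9.32, 8.96 and 8.77 at the 2-cell stage, against 7.12, 7.18, 7.05 and 6.80 at the 1-cell stage. Every 2-cell array lay above every 1-cell array, and the 2-cell arrays of the 3 origins did not overlap one another. Gpx4 was 8.81-fold higher in SCNT, 2.36-fold higher in parthenogenetic and 4.09-fold higher in fertilized embryos at the 2-cell stage, with log2 differences of 3.14 (SE 0.27), 1.24 (SE 0.25) and 2.03 (SE 0.25) (adjusted p = 4.56e-13, 7.19e-05 and 4.24e-09). The interaction of SCNT with fertilized embryos was 1.11 (SE 0.37, adjusted p = 0.0311), and the call was lost in 8 of the 15 fits that left out 1 array (1.01 to 1.12): without 1-cell SCNT replicate 1, 3 or 4, 2-cell SCNT replicate 1 or 2, 1-cell fertilized replicate 2, or 2-cell fertilized replicate 3 or 4. It was also lost on the values as deposited (0.88), with median centring (0.71), with a constant of 1.8 (1.11) and with the mean of probe sets (0.76), at adjusted p = 0.0632, 0.194, 0.0505 and 0.105. For parthenogenetic embryos it was -0.79 (SE 0.36) and did not pass (adjusted p = 0.0834), but it did without 1-cell parthenogenetic replicate 3 (-1.01, adjusted p = 0.0238) and under 5 alternatives, namely median centring, a constant of 22.1, the mean of probe sets, array weights and only the compared arrays (-1.21 to -0.77, adjusted p = 0.00206 to 0.0414).

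The 2 superoxide dismutases moved in opposite directions between the stages. Sod1, the cytosolic copper-zinc enzyme, had 11.39, 11.57, 11.63 and 11.75 at the 2-cell stage in SCNT embryos, against 12.59, 12.54 and 12.35 at the 1-cell stage. Parthenogenetic embryos had 10.18, 10.28, 10.25 and 10.29 at the 2-cell stage, against 11.90, 11.96, 11.64 and 11.90 at the 1-cell stage. Fertilized embryos had 10.04, 10.35, 10.28 and 10.17 at the 2-cell stage, against 11.54, 12.29, 12.22 and 12.46 at the 1-cell stage. The stages did not overlap in any origin, and the lowest 1-cell fertilized value was that of replicate 1. The differences were -0.91 (SE 0.13), -1.60 (SE 0.12) and -1.92 (SE 0.12) in SCNT, parthenogenetic and fertilized embryos (adjusted p = 6.18e-08, 1.07e-14 and 1.54e-17). The decrease in SCNT embryos was smaller than in fertilized ones by 1.01 (SE 0.17, adjusted p = 3.55e-05).

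Sod2, the manganese enzyme of mitochondria, had 11.93, 11.98, 12.12 and 12.25 at the 2-cell stage in SCNT embryos, against 10.87, 10.84 and 10.80 at the 1-cell stage. Parthenogenetic embryos had 11.91, 11.70, 11.88 and 11.95 at the 2-cell stage, against 11.06, 11.24, 11.11 and 10.98 at the 1-cell stage. Fertilized embryos had 11.59, 11.87, 11.53 and 11.54 at the 2-cell stage, against 10.50, 10.62, 10.48 and 10.66 at the 1-cell stage. All 2-cell arrays lay above the 1-cell arrays of their origin. The increases were 1.23 (SE 0.10), 0.76 (SE 0.095) and 1.07 (SE 0.095) in SCNT, parthenogenetic and fertilized embryos (adjusted p = 1.17e-13, 7.99e-09 and 7.22e-13), and neither interaction with origin passed (adjusted p = 0.48 for SCNT and 0.0736 for parthenogenetic embryos). With median centring the increase in parthenogenetic embryos was 0.18 and did not pass (adjusted p = 0.234). The interaction of parthenogenetic with fertilized embryos passed on the values as deposited (-0.35), with median centring (-0.66) and with the mean of probe sets (-0.72), at adjusted p = 0.0473, 0.00248 and 0.0129.

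Embryos cultured with amanitin were compared between the same stages, which gives the change in the presence of the inhibitor. In SCNT embryos 8 of the 9 genes passed, 2 higher and 6 lower at the 2-cell stage, beside 55.4% of all genes (25.6% higher and 29.8% lower). In fertilized embryos 7 passed, 2 higher and 5 lower, beside 40.6% of all genes (21.5% higher and 19% lower). The treated stages did not overlap for 7 of the 9 genes in SCNT and 8 in fertilized embryos. The shares of all genes were 45.5% and 43.1%. Glrx had log2 differences of -3.62 (SE 0.26) in SCNT and -2.91 (SE 0.26) in fertilized embryos, and Txnip of -1.37 (SE 0.22) and -4.41 (SE 0.22). Both genes fell to the 2-cell stage in both origins with the inhibitor present (adjusted p at most 1.22e-06). Sod1 had 9.21, 9.10, 9.21 and 8.96 in treated 2-cell SCNT embryos, against 12.49, 12.62, 12.42 and 12.32 in treated 1-cell SCNT embryos, a difference of -3.34 (SE 0.12, adjusted p = 1.43e-24). In treated fertilized embryos its difference was -0.51 (SE 0.12, adjusted p = 0.000509). With the mean of probe sets the Sod1 differences were -1.34 in SCNT and -0.21 in fertilized embryos, the second of which did not pass (adjusted p = 0.153), nor did it on the values as deposited (-0.30, adjusted p = 0.058). The increases of Gpx4 and Sod2 seen without the inhibitor had no counterpart in SCNT embryos with it, where Gpx4 fell by 1.13 (SE 0.25) and Sod2 by 1.14 (SE 0.095) (adjusted p = 0.000206 and 1.61e-13). In treated fertilized embryos Gpx4 differed by 0.20 (SE 0.25) and did not pass (adjusted p = 0.575), whereas Sod2 was higher by 0.41 (SE 0.095, adjusted p = 0.000508), though by 0.0017 with median centring (adjusted p = 0.995) and by 0.28 with the mean of probe sets (adjusted p = 0.181). Gpx3 in treated SCNT embryos was 9.85, 10.19, 10.23 and 9.94 at the 2-cell stage, against 7.43, 7.66, 7.73 and 7.35 at the 1-cell stage. That is a 5.69-fold difference with no overlap (log2 difference 2.51 with SE 0.18, adjusted p = 3.01e-15), beside 0.41 (SE 0.18) in treated fertilized embryos, which did not pass (adjusted p = 0.0674). The fertilized difference of Gpx3 did pass without treated 1-cell replicate 2 (0.50, adjusted p = 0.0435), with array weights (0.39, adjusted p = 0.0228) and with only the compared arrays (adjusted p = 0.014). In treated SCNT embryos the poly(A) spike-in controls averaged 9.60 at the 2-cell and 3.73 at the 1-cell stage. Hybridization spike-in controls averaged 10.88 and 9.98 there. The part of these controls in the differences was not tested.

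The comparison of amanitin with no inhibitor at the 2-cell stage shows which levels differed when RNA polymerase II was blocked. In SCNT embryos 7 of the 9 genes passed, 3 higher and 4 lower with amanitin, beside 69.2% of all genes (39.6% higher and 29.7% lower). In fertilized embryos 6 passed, 4 higher and 2 lower, beside 64.3% of all genes (38.6% higher and 25.8% lower). Treated and untreated arrays did not overlap for 7 of the 9 genes in SCNT and 6 in fertilized embryos. The shares of all genes were 60.7% and 60%. The median of all genes itself was 0.28 higher with amanitin in SCNT and 0.27 higher in fertilized embryos, and the median of the 9 members was -0.092 and 0.33, so that a difference of a gene relative to all others is smaller than printed where it is positive and larger where it is negative. Both comparisons are with different control arrays, and the difference between the 2 origins was tested as an interaction, which passed for 8 of the 9 genes, 3 with a higher and 5 with a lower value in SCNT, beside 38.9% of all genes (17.8% higher and 21.1% lower).

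**Figure D3:**
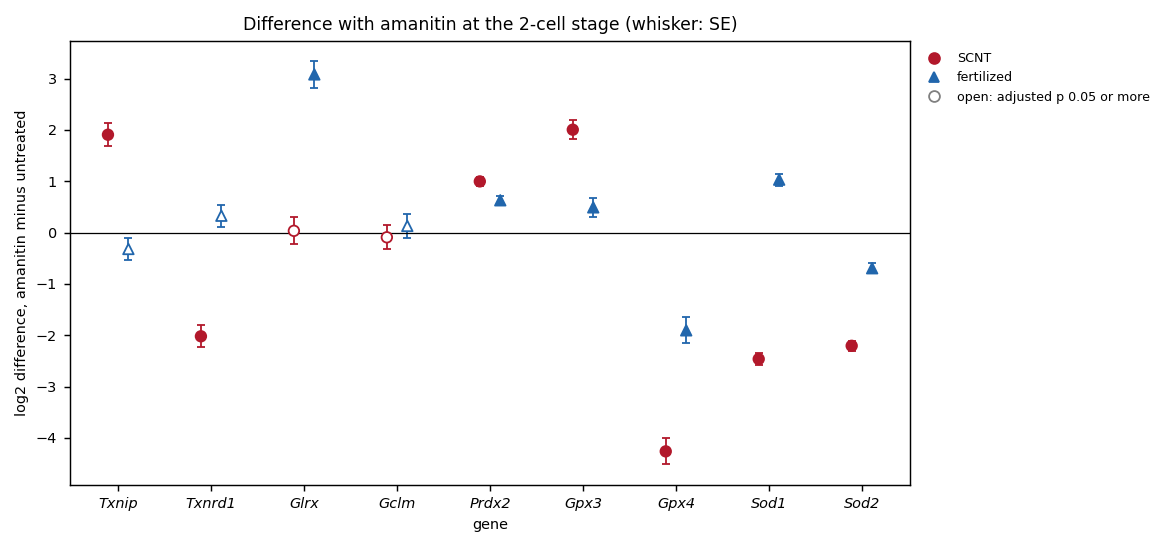
Difference between amanitin-treated and untreated 2-cell embryos for each gene on the log2 scale, SCNT and fertilized (whiskers are SEs, open symbols did not pass). Gpx4, at -4.26 in SCNT embryos, is the lowest point, and Sod1 lies below 0 in SCNT and above 0 in fertilized embryos.

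Gpx4 gave the largest difference with the inhibitor. In SCNT embryos it had 6.76, 6.91, 6.08 and 4.93 with amanitin, against 10.71, 10.49, 10.16 and 10.36 without it. In fertilized embryos it had 7.26, 7.31, 7.18 and 6.90 with amanitin, against 9.22, 9.32, 8.96 and 8.77 without it. In both origins all treated arrays lay below all untreated arrays, and 1 treated SCNT array lay under the overall median. Gpx4 was 19.2-fold lower in SCNT and 3.74-fold lower in fertilized embryos with amanitin (log2 differences -4.26 with SE 0.25 and -1.90 with SE 0.25, adjusted p = 3.14e-18 and 1.65e-08), with an interaction of -2.36 (SE 0.36, adjusted p = 9.36e-07). Sod2 had 9.73, 9.75, 10.12 and 9.86 with amanitin in SCNT embryos, against 11.93, 11.98, 12.12 and 12.25 without it. In fertilized embryos it had 11.10, 10.86, 10.97 and 10.83 with amanitin, against 11.59, 11.87, 11.53 and 11.54 without it. Again no treated array reached an untreated one. The Sod2 differences were -2.21 (SE 0.095) in SCNT and -0.69 (SE 0.095) in fertilized embryos (adjusted p = 1.47e-22 and 2.95e-08). Their interaction was -1.51 (SE 0.13, adjusted p = 6.07e-12), and it was -0.25 (adjusted p = 0.447) when all probe sets of a gene were averaged, where the SCNT difference was -1.29.

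Sod1, Glrx and Txnrd1 differed between the origins in how amanitin-treated embryos compared with untreated ones. Sod1 had 9.21, 9.10, 9.21 and 8.96 with amanitin in SCNT embryos, against 11.39, 11.57, 11.63 and 11.75 without it. In fertilized embryos it had 11.26, 11.39, 11.15 and 11.17 with amanitin, against 10.04, 10.35, 10.28 and 10.17 without it. All treated SCNT arrays lay below, and all treated fertilized arrays above, the untreated arrays of their origin. Sod1 was 5.52-fold lower in SCNT and 2.04-fold higher in fertilized embryos with amanitin (log2 differences -2.46 with SE 0.12 and 1.03 with SE 0.12, adjusted p = 4.62e-21 and 5.41e-10). The interaction was -3.50 (SE 0.17, adjusted p = 1.55e-19). With the mean of probe sets the SCNT difference of Sod1 was -1.14 and the interaction -1.60. Glrx had 7.88, 8.10, 7.89 and 7.90 with amanitin in fertilized embryos, against 4.78, 3.79, 5.18 and 5.70 without it. In SCNT embryos it had 6.33, 7.08, 6.59 and 5.16 with amanitin, against 5.97, 6.56, 6.53 and 5.96 without it. The fertilized arrays did not overlap and those of SCNT embryos did. Glrx was 8.47-fold higher in fertilized embryos with amanitin (3.08 with SE 0.26, adjusted p = 2.13e-13), while the difference of 0.034 (SE 0.26) in SCNT embryos did not pass (adjusted p = 0.915). Its interaction was -3.05 (SE 0.37, adjusted p = 1.19e-08). Txnrd1 had 6.30, 5.77, 5.86 and 6.16 with amanitin in SCNT embryos, against 8.01, 8.50, 7.28 and 8.38 without it, and no arrays overlapped. The Txnrd1 difference was -2.02 (SE 0.21) in SCNT (adjusted p = 4.83e-11) and 0.33 (SE 0.21) in fertilized embryos, where it did not pass (adjusted p = 0.177), with an interaction of -2.35 (SE 0.30, adjusted p = 3.22e-08).

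Txnip, Gpx3 and Prdx2 were higher in SCNT embryos with amanitin. Txnip had 8.62, 8.43, 8.69 and 8.06 with it, against 6.43, 6.90, 6.54 and 6.30 without it. Gpx3 had 9.85, 10.19, 10.23 and 9.94 with it, against 7.75, 7.75, 8.35 and 8.33 without it. Prdx2 had 13.11, 13.11, 13.16 and 13.33 with it, against 12.48, 12.31, 11.84 and 12.08 without it. None of these 3 genes had overlapping arrays. The differences in SCNT embryos were 1.91 (SE 0.22) for Txnip, 2.00 (SE 0.18) for Gpx3 and 1.00 (SE 0.086) for Prdx2 (adjusted p = 5.79e-10, 8.26e-13 and 1.81e-13). In fertilized embryos Gpx3 and Prdx2 were higher by 0.49 (SE 0.18) and 0.63 (SE 0.086) (adjusted p = 0.0173 and 2.69e-08), and Txnip, at -0.32 (SE 0.22), did not pass (adjusted p = 0.21). The Gpx3 call in fertilized embryos was lost without treated replicate 4 (0.39, adjusted p = 0.0795) and with median centring (0.43, adjusted p = 0.0572). For Prdx2 in SCNT embryos the value was 1.83 on the values as deposited, 1.78 with median centring and 1.66 with the mean of probe sets. The interactions were 2.23 (SE 0.31) for Txnip, 1.51 (SE 0.26) for Gpx3 and 0.37 (SE 0.12) for Prdx2 (adjusted p = 2.19e-07, 6.55e-06 and 0.0135), and that of Prdx2 was lost without untreated SCNT replicate 3 (0.26, adjusted p = 0.0615) and with only the compared arrays (adjusted p = 0.051). The interaction of Txnip was 1.45 with the mean of probe sets. Poly(A) spike-in controls, given with the controls, were likewise higher in treated than in untreated 2-cell SCNT embryos, and their part in these differences was not tested. Gclm did not pass in either origin, at -0.092 (SE 0.24) in SCNT and 0.13 (SE 0.24) in fertilized embryos (adjusted p = 0.744 and 0.651).

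At the 1-cell stage amanitin went with few differences. In SCNT embryos limma called 0 of the 9 genes, 0 of them also at an unadjusted p under 0.05, and 0.429% of all genes (0.0805% higher and 0.349% lower). In fertilized embryos 1 gene, Gpx3, passed, beside 6.03% of all genes (3.59% higher and 2.45% lower). Gpx3 had 8.95, 9.19, 8.93 and 8.68 with amanitin, against 8.88, 8.04, 7.73 and 7.43 without it. Replicate 1 of the untreated group reached the treated range, and the other 3 untreated arrays lay below it. The difference was 0.92 (SE 0.18, adjusted p = 0.00138), and with only the compared arrays in the fit its adjusted p was 0.0582. The same gene in SCNT embryos differed by -0.29 (SE 0.20, adjusted p = 0.783). The other 8 genes had differences between -0.25 and 0.27 in SCNT and between -0.37 and 0.19 in fertilized embryos. Sod1 in fertilized embryos, at -0.37 (SE 0.12), passed without untreated replicate 1 (-0.57, adjusted p = 0.000133) or treated replicate 4 (-0.44, adjusted p = 0.0341), and under 5 alternatives, namely values as deposited, a constant of 22.1, the filter on the mean, array weights and the replicate block (-0.49 to -0.37, adjusted p = 0.000465 to 0.0474). Sod2 in fertilized embryos passed with median centring (0.35, adjusted p = 0.0357).

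Untreated embryos of different origin were compared within a stage. At the 2-cell stage SCNT embryos differed from fertilized ones in 8 of the 9 genes, 6 higher and 2 lower, beside 30.6% of all genes (14.3% higher and 16.3% lower). They differed from parthenogenetic embryos in 8, 4 higher and 4 lower, beside 54.5% of all genes (24.4% higher and 30.1% lower). Parthenogenetic embryos differed from fertilized ones in 5, 3 higher and 2 lower, beside 47.4% of all genes (26.4% higher and 21% lower). In the same order, arrays did not overlap for 6, 7 and 4 of the 9 genes, beside 31.3%, 49.7% and 45.3% of all genes. These comparisons share arrays with one another and are not independent.

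**Figure D4:**
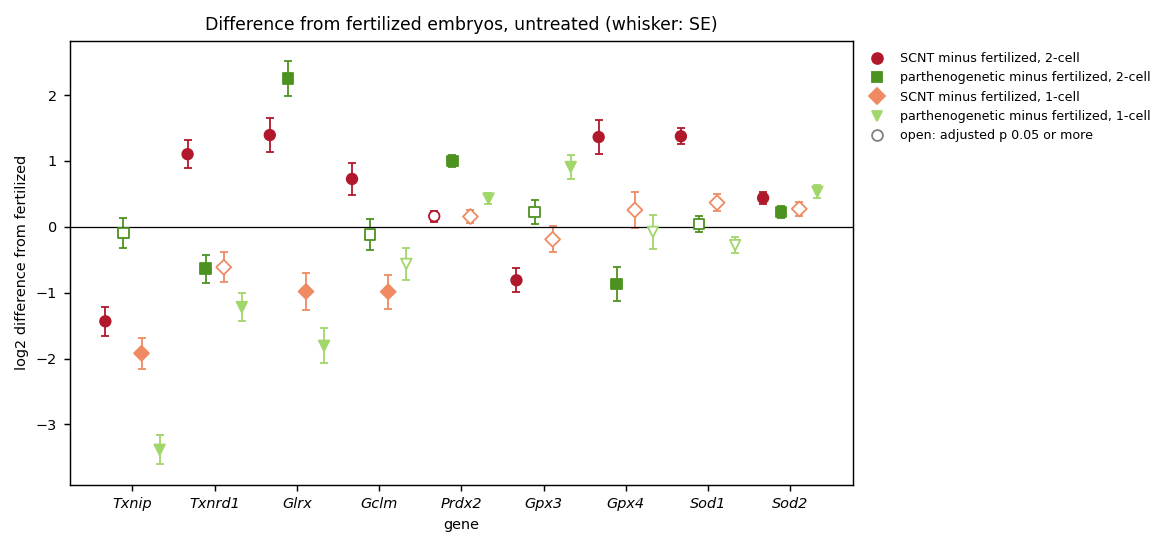
Difference from fertilized embryos of the same stage for each gene, untreated, on the log2 scale, for SCNT and parthenogenetic embryos at the 2-cell and the 1-cell stage (whiskers are SEs, open symbols did not pass). The comparisons of a stage share its fertilized arrays; the lowest point is Txnip in 1-cell parthenogenetic embryos at -3.38.

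At the 2-cell stage Txnip averaged 6.54 ± 0.26 in SCNT, 7.88 ± 0.53 in parthenogenetic and 7.98 ± 0.32 in fertilized embryos (SD, n = 4 each). All SCNT arrays lay below those of both other origins, which overlapped each other. The differences of SCNT embryos were -1.43 (SE 0.22) from fertilized and -1.34 (SE 0.22) from parthenogenetic embryos (adjusted p = 1.99e-06 and 1.96e-06), and parthenogenetic minus fertilized was -0.095 (SE 0.22, adjusted p = 0.768). Txnrd1 averaged 8.04 ± 0.55 in SCNT, 6.31 ± 0.48 in parthenogenetic and 6.94 ± 0.24 in fertilized embryos. It was higher in SCNT embryos by 1.10 (SE 0.21) and 1.74 (SE 0.21) than in fertilized and parthenogenetic ones (adjusted p = 7.12e-05 and 4.19e-09), and replicate 3, the lowest SCNT array, fell within the fertilized range. Gclm was higher in SCNT than in fertilized embryos by 0.73 (SE 0.24, adjusted p = 0.0163), with overlapping arrays, and this call was lost without SCNT replicate 3 (0.56, adjusted p = 0.0915) or fertilized replicate 4 (0.63, adjusted p = 0.0644).

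Glrx at the 2-cell stage averaged 6.26 ± 0.33 in SCNT, 7.12 ± 0.22 in parthenogenetic and 4.86 ± 0.81 in fertilized embryos. No 2 of the 3 origins overlapped. Parthenogenetic embryos were 4.77-fold and SCNT embryos 2.63-fold higher than fertilized ones (2.25 with SE 0.26 and 1.39 with SE 0.26, adjusted p = 2.09e-09 and 5.24e-05). Gpx4 averaged 10.43 ± 0.23 in SCNT, 8.20 ± 0.26 in parthenogenetic and 9.07 ± 0.25 in fertilized embryos. Its SCNT arrays were above all others and its parthenogenetic arrays below all others, with differences from fertilized embryos of 1.36 (SE 0.25) and -0.87 (SE 0.25) (adjusted p = 4.1e-05 and 0.00396). Sod1 averaged 11.58 ± 0.15 in SCNT, 10.25 ± 0.051 in parthenogenetic and 10.21 ± 0.13 in fertilized embryos, and only the SCNT arrays stood apart (1.37 with SE 0.12 from fertilized, adjusted p = 5.2e-12). Prdx2 averaged 12.18 ± 0.28 in SCNT, 13.02 ± 0.06 in parthenogenetic and 12.02 ± 0.095 in fertilized embryos, and here the parthenogenetic arrays stood apart (1.00 with SE 0.086 from fertilized, adjusted p = 9.5e-13). Gpx3 averaged 8.04 ± 0.34 in SCNT, 9.08 ± 0.16 in parthenogenetic and 8.86 ± 0.091 in fertilized embryos, lowest in SCNT without overlap (-0.81 with SE 0.18 from fertilized, adjusted p = 0.000493). For Sod2 the difference of SCNT from fertilized embryos was 0.44 (SE 0.095) and that of parthenogenetic from fertilized embryos 0.23 (SE 0.095) (adjusted p = 0.000341 and 0.0463), and both turned negative when the mean of its probe sets was used (-0.48 and -0.63). The call between parthenogenetic and fertilized embryos was also lost without parthenogenetic replicate 1, 3 or 4 or fertilized replicate 1, 3 or 4 (0.19 to 0.22). It was also lost with median centring (0.14), no filter, no trend, only the compared arrays or the replicate block (adjusted p = 0.0502 to 0.392), and the call between SCNT and fertilized embryos was lost with median centring (0.13, adjusted p = 0.494). For Sod1 the difference of SCNT from fertilized embryos was 0.68 with the mean of probe sets. The sum of the 10 cumulus markers other than Amhr2 was 8.86 to 9.15 in untreated 2-cell SCNT and 8.66 to 9.06 in untreated 2-cell fertilized embryos, and its part in these differences was not tested.

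At the 1-cell stage 3 of the 9 genes, all lower, differed between SCNT and fertilized embryos, beside 5.56% of all genes (2.87% higher and 2.69% lower). Arrays of these 2 origins did not overlap for 6 of the 9 genes, beside 16.7% of all genes. For SCNT against parthenogenetic embryos it was 9, beside 32.8%, and for parthenogenetic against fertilized ones 6, beside 24.4%. Txnip averaged 9.96 ± 0.14 in SCNT, 8.49 ± 0.082 in parthenogenetic and 11.88 ± 0.54 in fertilized embryos (SD, n = 3, 4 and 4). The 3 origins did not overlap, with SCNT embryos in the middle and parthenogenetic ones lowest. Txnip was 3.78-fold lower in SCNT and 10.4-fold lower in parthenogenetic than in fertilized embryos (-1.92 with SE 0.24 and -3.38 with SE 0.22, adjusted p = 1.17e-06 and 3.67e-14). For Glrx the difference from fertilized embryos was -0.98 (SE 0.28) in SCNT embryos, and -1.81 (SE 0.26) in parthenogenetic ones (adjusted p = 0.0307 and 1.93e-06). For Gclm it was -0.99 (SE 0.26) in SCNT embryos (adjusted p = 0.0139). The Glrx call for SCNT embryos was lost without fertilized replicate 1 or 2 or any 1 of the SCNT arrays (-1.0 to -0.91), with a constant of 1.8, with the mean of probe sets (-0.71) or with no trend (adjusted p = 0.0554 to 0.185), and the Gclm call without SCNT replicate 3 (-0.79, adjusted p = 0.127). SCNT embryos differed from parthenogenetic ones in 5 genes, 3 higher and 2 lower, beside 14.2% of all genes (7% higher and 7.19% lower), with Txnip highest at 1.46 (SE 0.24) and Gpx3 lowest at -1.10 (SE 0.20) (adjusted p = 2.45e-05 and 8.38e-05). Parthenogenetic embryos differed from fertilized ones in 6 genes, 3 higher and 3 lower, beside 20.4% of all genes (10.9% higher and 9.52% lower). The higher ones were Gpx3 (0.91 with SE 0.18), Sod2 (0.53 with SE 0.095) and Prdx2 (0.43 with SE 0.086), and the third lower gene was Txnrd1 (-1.22 with SE 0.21), with adjusted p = 0.000239, 4.87e-05, 0.000231 and 3.56e-05. With the mean of probe sets Sod2 (0.099) and Prdx2 (0.16) did not pass in that comparison (adjusted p = 0.752 and 0.273), and the difference of Txnip between SCNT and fertilized embryos was -1.25. In the 1-cell SCNT groups the poly(A) spike-in controls were the lowest of all groups, and their part in these differences was not tested.

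With amanitin present, SCNT embryos differed from fertilized ones at the 2-cell stage in 8 genes, 3 higher and 5 lower, beside 43.2% of all genes (18.6% higher and 24.6% lower). Arrays did not overlap for 6 of the 9 genes, beside 35.2% of all genes. Sod1 averaged 9.12 ± 0.12 in treated SCNT and 11.24 ± 0.11 in treated fertilized embryos (SD, n = 4 each), a 4.35-fold difference without overlap (-2.12 with SE 0.12, adjusted p = 5.29e-18). Glrx, Txnrd1, Sod2 and Gpx4 were also lower in treated SCNT embryos, with log2 differences of -1.65 (SE 0.26), -1.25 (SE 0.21), -1.07 (SE 0.095) and -1.0 (SE 0.25), and Txnip, Gpx3 and Prdx2 were higher by 0.79 (SE 0.22), 0.70 (SE 0.18) and 0.53 (SE 0.086) (adjusted p at most 0.00322). Of these calls, Txnrd1 was lost with the mean of probe sets (-0.38, adjusted p = 0.0875), Txnip with median centring (0.54, adjusted p = 0.0586) and Gpx4 with only the compared arrays (adjusted p = 0.0549), and Sod1 was -0.92 with the mean of probe sets. At the 1-cell stage 7 genes differed, 2 higher and 5 lower, beside 21.5% of all genes (10.1% higher and 11.4% lower). The differences of treated SCNT from treated fertilized embryos were -2.25 (SE 0.22) for Txnip, -1.39 (SE 0.18) for Gpx3 and 0.71 (SE 0.12) for Sod1 (adjusted p = 5.92e-10, 1.87e-07 and 1.61e-05). With the mean of probe sets Txnip was -1.44, and Sod1, at 0.21, did not pass (adjusted p = 0.225). The poly(A) spike-in controls averaged 9.60 in treated SCNT and 6.99 in treated fertilized 2-cell embryos. At the 1-cell stage they averaged 3.73 and 6.84, and their part in these differences was not tested.

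Over the 10 groups, Txnip was highest in the 2 fertilized 1-cell groups, at 12.07 with and 11.88 without amanitin, and lowest in untreated 2-cell SCNT embryos at 6.54. Its range of 5.53 log2 units was exceeded by Glrx, whose highest means, 10.86 and 10.72, were in the same 2 groups and whose lowest, 4.86, was in untreated 2-cell fertilized embryos. The SCNT neighbours in the order of Glrx at the 2-cell stage, 6.29 with and 6.26 without amanitin, overlapped. Gpx4 was highest in the 3 untreated 2-cell groups, which separated from one another, and its 5 groups of 1-cell embryos had means of 6.96 to 7.30 with arrays between 6.29 and 7.61. Sod2 was highest in untreated 2-cell SCNT embryos (12.07) and lowest in treated ones (9.86). Sod1 had its lowest mean, 9.12, in that same treated group and its highest, 12.49 and 12.46, in the 2 overlapping 1-cell SCNT groups. Gpx3 and Prdx2 were instead highest in treated 2-cell SCNT embryos, at 10.05 and 13.18. Txnrd1 was highest in the 2 fertilized 1-cell groups and in untreated 2-cell SCNT embryos (8.13, 8.10 and 8.04), which overlapped, and Gclm in the 2 fertilized 1-cell groups (8.97 and 8.87).

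Pearson's r of the 10 group means describes which patterns were alike, and the groups in it share arrays' processing and stage. Among the members r was highest for Gpx4 with Sod2 (0.884) and Txnip with Glrx (0.840) and lowest for Gpx3 with Sod1 (-0.826). Over all genes tested, the patterns most like that of Txnip were those of Hyal2 (r = 0.972), Npc1 (0.971) and Zxdc (0.965). For Glrx they were those of Tsc22d1 (0.990), Efna4 (0.984) and Cd4 (0.983). Gpx4 was most like Kcnk5 (0.987), Cox20 (0.982) and Calml4 (0.982), and Sod1 most like Lgmn (0.980), Ogfod2 (0.978) and Rnf181 (0.973). The genes most like Txnrd1 were Scamp3 (0.969), Alkbh6 (0.939) and Shcbp1 (0.937), and those most like Gpx3 were Ulk2 (0.979), Atp11a (0.975) and Zfp318 (0.959). For Sod2 they were Srsf5 (0.963), Ddx17 (0.962) and Kansl2 (0.961), for Prdx2 Tprgl (0.941), Glcci1 (0.936) and Necab2 (0.929), and for Gclm Gpr108 (0.977), Fbxo10 (0.954) and Slc35c1 (0.933).

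Other probe sets of the members gave a check on the chosen ones. Taking the comparisons in which a gene passed, the second probe set of Txnip had the same sign in 15 of 15 and that of Gpx4 in 12 of 12. For Glrx it was 16 of 17, for the 2 others of Txnrd1 12 and 13 of 14, and for Prdx2 11 of 14. Of 3 others for Sod1 past the filter, 1 had the same sign in 14 of 14 and the others in 2 and 7. For Sod2 the 3 others had it in 13, 8 and 7 of 13. Sod1 and Sod2 therefore rest on the chosen probe sets together with the 1 that followed each in every comparison. These averaged 11.28 and 11.11 for Sod1 and 11.04 and 10.28 for Sod2. The others had lower means, of 6.23 and 5.40 for Sod1 and 5.59 and 4.36 for Sod2, beside the overall median of 5.34. The Sod1 probe set at 6.23 lay above that median on 38 of the 39 arrays, and it had the same sign in only 2 of 14. The Sod2 probe set at 4.36 lay above it on 5 arrays and reached 7.57. Why these probe sets differ from the chosen ones was not tested. A mean of probe sets gives these others the same weight as the brighter ones. With the mean over its probe sets past the filter, the stage difference of Sod1 in SCNT embryos was -0.27 and did not pass (adjusted p = 0.0565), and it was -0.50 in parthenogenetic and -0.86 in fertilized embryos. Gpx3 has 1 probe set, and the second one of Gclm and a further one of Sod1 were below the filter.

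Other genes of these systems were described with a list of 80, of which 69 were tested. Between the stages 26 rose and 26 fell in SCNT embryos (37.7% each, beside 26.3% and 34.4% of all genes, with a median 2-cell minus 1-cell difference of -0.036 over the 69). In parthenogenetic embryos 20 rose and 26 fell (29% and 37.7%, beside 21.7% and 27.4% of all genes, median -0.037), and in fertilized embryos 21 rose and 30 fell (30.4% and 43.5%, beside 25.8% and 34.2%, median -0.28). Prdx4, a peroxiredoxin of the endoplasmic reticulum, rose in all 3 origins, with differences of 3.94 (SE 0.25) in SCNT, 3.31 (SE 0.23) in parthenogenetic and 4.41 (SE 0.23) in fertilized embryos. Slc7a11, a subunit of the cystine importer that feeds glutathione synthesis, was lower, with differences of -4.15 (SE 0.22) in SCNT and -3.97 (SE 0.21) in fertilized embryos. With amanitin at the 2-cell stage 22 were higher and 34 lower in SCNT embryos (31.9% and 49.3%, beside 39.6% and 29.7% of all genes, median -0.63). In fertilized embryos 34 were higher and 21 lower (49.3% and 30.4%, beside 38.6% and 25.8% of all genes, median 0.53). The interaction was positive for 6 and negative for 38 (8.7% and 55.1%, beside 17.8% and 21.1% of all genes, median -0.88). Taldo1, transaldolase of the pentose phosphate pathway that supplies NADPH, was lower with amanitin, with differences of -6.03 (SE 0.33) in SCNT and -4.46 (SE 0.33) in fertilized embryos. Gclc, the catalytic partner of Gclm, was lower, with a difference of -5.65 (SE 0.32) in SCNT embryos. Txnl4a, named for its thioredoxin fold but a component of the spliceosome, was lower, with differences of -4.93 (SE 0.15) in SCNT and -4.13 (SE 0.15) in fertilized embryos. Idh1, cytosolic isocitrate dehydrogenase, another source of NADPH, was higher by 4.00 (SE 0.30) in fertilized embryos. The adjusted p-values of these named differences were at most 7.93e-15. The sizes of several of them depend on the constant added before the log, since 1 side lay below the overall median: Slc7a11 averaged 4.11 in SCNT and 4.84 in fertilized 2-cell embryos, Taldo1 4.18 and 5.20 in treated SCNT and treated fertilized ones, Gclc 3.72 in treated SCNT and Idh1 3.75 in untreated fertilized ones. Other constants were not tried for these genes.

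Between origins at the 2-cell stage, 25 of the 69 were higher and 11 lower in SCNT than in fertilized embryos (36.2% and 15.9%, beside 14.3% and 16.3% of all genes), with Txn1, thioredoxin itself, highest. Txn1 averaged 10.44 in SCNT and 7.02 in fertilized embryos, a difference of 3.42 (SE 0.13, adjusted p = 1.88e-21). The interaction of Txn1 with the amanitin effect was -4.29 (SE 0.19, adjusted p = 1.56e-20), of the same sign as that of its reductase Txnrd1 and opposite to that of its inhibitor Txnip. A negative sign was the more frequent one, called for 38 of the 69 against 6 positive, and for 5 of the 9 members against 3. Sharing it therefore does not set Txn1 and Txnrd1 apart. In parthenogenetic embryos 27 were higher and 19 lower than in fertilized ones (39.1% and 27.5%, beside 26.4% and 21% of all genes), among the lower ones Tkt and Taldo1, enzymes of the pentose phosphate pathway, with differences of -3.25 (SE 0.15) and -3.17 (SE 0.33). At the 1-cell stage 2 of the 69 were higher and 1 lower in SCNT than in fertilized embryos (2.9% and 1.45%, beside 2.87% and 2.69% of all genes). With amanitin at that stage, 0 of the 69 passed limma's test in SCNT embryos, 8 at an unadjusted p under 0.05 (0.429% of all genes passed), and 3 in fertilized ones, 2 higher and 1 lower (2.9% and 1.45%, beside 3.59% and 2.45% of all genes).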

How the data were processed

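Per the labels' protocols, poly(A) RNA was extracted with a PicoPure kit and labelled with biotin using an Enzo kit. The authors deposited 1 linear intensity per probe set and array. The software and settings with which the authors scaled them are not given in the sources used here. The members and gene lists were chosen with earlier results of these data known.

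The 64 control probe sets were set aside, and log2(intensity + 6.9) was taken, where 6.9 is the 20th percentile of the deposited values. The medians of the arrays then spanned 0.822 log2 units, so values were quantile normalized. A probe set had to exceed the overall median, 5.34, on 4 arrays or more, which 31153 did. The annotation gives 1 gene for 34945 of the 45101 probe sets, several for 932 and none for 9160. Those with 1 gene and past the filter numbered 25931 and covered 14916 genes, each represented by its brightest probe set on average. A model of group means was fitted in limma 3.58.1 (R 4.3.3, empirical Bayes with a trend, 29 residual degrees of freedom), and 17 comparisons of groups and 3 interactions were tested 2-sided, with Benjamini-Hochberg adjustment over all genes tested and a threshold of 0.05. The number of arrays limits the precision. The procedure was run on simulated data with independent normal noise and differences planted in few genes of a single group. Far more genes passed in the 2-cell comparisons here, so that run does not show how the procedure performs on these data.

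Named genes are the members, of the other redox genes those called with the 4 largest differences per comparison (the text names part of them), and for each member the 3 genes with the highest correlation of group means. Same-numbered replicates were checked for pairing: over 171 pairs the correlation of residuals was -0.115 to 0.113, with 1 pair over 0.1, so the numbers do not pair samples. Alternatives were values as deposited, median centring, constants of 1.8 and 22.1, leaving out the filter or basing it on the mean, averaging the probe sets of a gene past the filter, leaving out the trend, weighting arrays, a replicate block, fitting only the compared arrays, and omitting single arrays. The empty array was left out.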

Additional observations from a re-analysis of the deposited data

Results flagged for a closer look

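In 9 groups of 4 arrays and 9 genes, 81 sets of values were examined for a single array that stood apart from the other 3 (Dixon's test), and 5 were found. Chance gives about 1 in 20 such sets. Txnrd1 was 7.30 in replicate 4 of the untreated 2-cell fertilized embryos, where the other 3 arrays lay at 6.81 to 6.83. Sod2 was 11.87 in replicate 2 of that group, with the others at 11.53 to 11.59. Glrx was 8.10 in replicate 2 of the amanitin-treated 2-cell fertilized embryos, with the others at 7.88 to 7.90. In the treated 1-cell fertilized embryos Glrx was 10.83 in replicate 1, where the others printed as 10.87, a gap of a few hundredths. Gpx4 was 6.29 in replicate 3 of the 1-cell parthenogenetic embryos, with the others at 7.14 to 7.23. Replicate 1 of the untreated 1-cell fertilized embryos was not flagged, but calls depended on it. Without it Sod1 also passed for parthenogenetic minus fertilized 1-cell embryos (-0.48, adjusted p = 0.000239). Stage interactions with fertilized embryos passed too, of SCNT for Gpx3 (-0.91, adjusted p = 0.00208) and of parthenogenetic embryos for Sod1 (0.52, adjusted p = 0.00168).

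Effects that differed between origins were found by the interaction tests, which passed for 17 of 27 combinations of gene and interaction. For the amanitin effect at the 2-cell stage, SCNT effect minus fertilized effect, they were 2.23 for Txnip, -2.35 for Txnrd1, -3.05 for Glrx, 1.51 for Gpx3, -2.36 for Gpx4, -3.50 for Sod1, -1.51 for Sod2 and 0.37 for Prdx2 on the log2 scale. These were 8 of the 9 genes, beside 38.9% of all genes. Every array of treated SCNT embryos had lower Sod1, and every array of treated fertilized embryos higher Sod1, than the untreated arrays of the same origin. For the change between the stages, SCNT minus fertilized, the interactions were 1.72 for Txnrd1, 2.38 for Glrx, 1.11 for Gpx4, 1.01 for Sod1 and 1.71 for Gclm. These were 5 of the 9 genes, beside 19% of all genes (8.62% higher and 10.4% lower). For parthenogenetic minus fertilized they were 3.29 for Txnip, 4.06 for Glrx, -0.68 for Gpx3 (adjusted p = 0.0346) and 0.57 for Prdx2. These were 4 of the 9 genes, near the share of 35.4% of all genes (19.8% higher and 15.7% lower). The Gpx3 call was lost without 1-cell fertilized replicate 3 or 4, 2-cell fertilized replicate 3 or 4, 1-cell parthenogenetic replicate 2 or 3, or 2-cell parthenogenetic replicate 1 or 3 (-0.67 to -0.49), and with only the compared arrays (adjusted p = 0.0649).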

How the results depend on the processing

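Of 180 differences (9 genes in 20 comparisons), 120 passed, 91 of them under all 11 alternatives, 105 with every array left out in turn and 87 under both. Between amanitin and no inhibitor in 1-cell fertilized embryos, 1 gene passed, against 0 with only the compared arrays and 2 with values as deposited, median centring, the high constant, the filter on the mean, array weights or the replicate block. Between SCNT and parthenogenetic 1-cell embryos 5 passed, against 3 with no filter or no trend, 2 with the mean of probe sets and 8 with only the compared arrays. With the mean of probe sets, 4 in place of 7 passed between the stages in treated fertilized embryos and 3 in place of 7 between treated SCNT and fertilized 1-cell embryos. Leaving out 1 array gave 1 to 2 genes for amanitin in 1-cell fertilized embryos (2 without untreated replicate 1 or treated replicate 4) and 3 to 5 between parthenogenetic and fertilized 2-cell embryos (3 without fertilized replicate 4). It gave 1 to 4 between SCNT and fertilized 1-cell embryos, where 3 had passed (1 without SCNT replicate 3, 4 without fertilized replicate 4), and 3 to 4 between SCNT and parthenogenetic 1-cell embryos. For the last the 3 came without any 1 of the SCNT arrays or parthenogenetic replicate 1, 2 or 3. Signs turned in 3 cases: Prdx2 between the stages in parthenogenetic embryos was -0.16 with median centring, against 0.20, and with the mean of probe sets Sod2 was -0.48 for SCNT and -0.63 for parthenogenetic minus fertilized 2-cell embryos, against 0.44 and 0.23. The cause of these changes was not tested. Replicate numbers do not pair the samples, and as an alternative the replicate block changed only 2 further counts, of 5 to 4 each, between parthenogenetic and fertilized 2-cell and between SCNT and parthenogenetic 1-cell embryos. Signal over background limits the values near the overall median, such as Glrx in untreated 2-cell fertilized embryos, whose stage difference was -6.19 with the low and -5.22 with the high constant.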
